A study of Mus musculus with 16 samples.

Results

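The 10 inflammatory chemokines described here are Ccl2, Ccl5, Ccl7, Ccl11, Ccl22, Cxcl1, Cxcl9, Cxcl10, Cxcl12 and Cx3cl1. They were found by gene symbol among the 36722 genes of the deposited table, and all 10 symbols had a row. The list was selected on expression values of these same libraries, with differences between the groups known, so the values of its genes are a description and carry no p-value. RNA of lumbar dorsal root ganglia (DRG, L3 to L5), where sensory neurons of the hind paw have their cell bodies among glia and immune cells, was sequenced from C57BL/6 mice as polyA-selected libraries. All mice had received 20 µl of 2% carrageenan, an irritant that causes lasting inflammatory pain, into the paw, and 6 days later a spinal (intrathecal) injection. The 16 libraries fall into 3 groups: 1 µg of IL4-10 FP, a fusion protein that joins the cytokines IL4 and IL10 in a single molecule (n = 6), IL4 and IL10 as separate molecules at 0.5 µg each, called the combination here (n = 5), and PBS, the vehicle (n = 5). Ganglia were taken 6 hours after that injection. The title of the series asks how the fusion protein and the combination differ. Whether every sample is a separate mouse is not stated in the labels, so p-values measure the spread between these samples, which may be technical. Sex and age are not given, and no group without carrageenan was analysed here.

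Chemokines are small secreted proteins that guide leukocytes along a gradient by way of receptors coupled to G proteins. Most inflammatory ones are made on demand by macrophages, glia, endothelium and fibroblasts, after interferon or NF-kappa-B signals, while Cxcl12 and Cx3cl1 are made in many tissues at rest. In sensory ganglia several of them also act on neurons that carry their receptors, and Ccl2 in particular is known for sensitizing nociceptors.

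Values were deposited on a log2 scale after a variance-stabilizing transform. They decode to whole scaled values, which are not read counts. The most common value, 1, is taken here to mean that a gene was not detected. A value below 1 occurred 34 times, in 2 libraries. Scaled totals ran from 16707007 to 19083947 in fusion protein libraries, from 18192127 to 20879857 in combination libraries and from 17228512 to 18733358 in vehicle libraries, and the read depth is unknown. Differences below are differences of mean deposited log2 values with the SE of a limma fit over all libraries. Near the floor the transform compresses differences, so a ratio of mean scaled values can be much larger than the log2 difference shows. The sum of 10 neuronal markers, Tubb3 and Scn10a among them, was 253436 to 404691 in fusion protein, 281918 to 360815 in combination and 275402 to 353965 in vehicle libraries, so markers of the labelled tissue were high in each library. Fusion protein replicate 1 had its group's highest value for 6 of the 10 chemokines, so results that depend on it are also given without it. Replicate 1 led the other groups too, for 7 of the 10 in the combination group and 6 of the 10 in the vehicle group. In bulk tissue, fewer cells of a type and less RNA per cell cannot be told apart.

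The genes sit in 6 places of the genome (build GRCm38, GENCODE annotation). Ccl2 (chr11:82035571-82037453), Ccl7 (chr11:82045712-82047525) and Ccl11 (chr11:82057823-82062955) lie next to each other on the plus strand, with Ccl12, Ccl8 and Ccl1 beyond them. Ccl5 (chr11:83525778-83530518, minus strand) opens a second cluster of chromosome 11 with Ccl9, Ccl6, Ccl3 and Ccl4. Cxcl9 (chr5:92321347-92328079) and Cxcl10 (chr5:92346638-92348889) are neighbours on the minus strand of chromosome 5, followed by Cxcl11, and Cxcl1 (chr5:90891241-90893115, plus strand) lies in another cluster of that chromosome. Ccl22 (chr8:94745590-94751699) and Cx3cl1 (chr8:94772009-94782427) share a stretch of chromosome 8 with Ccl17, all on the plus strand, and Cxcl12 (chr6:117168535-117181367, plus strand) has no other ligand within reach.

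Promoters of 6 of the 10 genes were in the RefSeq table used here (assembly GRCm38.p6), and those of Ccl2, Ccl5, Ccl7 and Ccl11 are not shown. The 250 bases before the start are shown for Cxcl10 (chr5:92348890-92349139, minus strand) and Cxcl9 (chr5:92328080-92328329, minus strand), neighbours with high values after the fusion protein, for Cxcl1 (chr5:90890995-90891244, plus strand), whose values spread widely in that group, and for Cxcl12 (chr6:117168285-117168534, plus strand), which had its highest mean in vehicle libraries. Sequences run 5′ to 3′ along the gene, and capitals mark matches, on either strand, to the core of an interferon-stimulated response element (GAAA, any 2 bases, GAAA) or to the kappa-B frame (GGG, any 5 bases, CC), with overlapping matches joined.
Cxcl10: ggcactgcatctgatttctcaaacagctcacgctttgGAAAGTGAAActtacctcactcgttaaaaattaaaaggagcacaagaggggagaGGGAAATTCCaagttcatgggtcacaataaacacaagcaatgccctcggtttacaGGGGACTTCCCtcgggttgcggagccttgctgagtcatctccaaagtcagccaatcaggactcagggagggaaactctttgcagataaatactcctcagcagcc
Cxcl9: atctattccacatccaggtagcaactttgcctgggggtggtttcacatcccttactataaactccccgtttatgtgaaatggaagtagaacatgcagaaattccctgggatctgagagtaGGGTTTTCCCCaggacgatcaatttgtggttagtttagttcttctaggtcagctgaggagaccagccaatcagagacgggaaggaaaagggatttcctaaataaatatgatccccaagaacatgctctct
Cxcl1: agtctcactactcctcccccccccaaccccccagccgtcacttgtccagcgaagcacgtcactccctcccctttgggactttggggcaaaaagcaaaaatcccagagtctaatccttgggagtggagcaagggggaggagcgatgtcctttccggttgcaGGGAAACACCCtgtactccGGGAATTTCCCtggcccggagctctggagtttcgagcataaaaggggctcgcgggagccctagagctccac
Cxcl12: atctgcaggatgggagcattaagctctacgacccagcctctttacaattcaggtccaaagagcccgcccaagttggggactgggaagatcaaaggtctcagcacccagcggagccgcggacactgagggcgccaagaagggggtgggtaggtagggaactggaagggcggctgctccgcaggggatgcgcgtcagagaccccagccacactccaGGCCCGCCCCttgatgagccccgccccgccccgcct
Of the 6 promoters, that of Cxcl10 alone held the interferon-stimulated response element, from −213 to −204 counted from the start, and 2.98% of 32851 RefSeq promoters hold it in the same window. The kappa-B frame stood in 5 of the 6, all but Cx3cl1, and it is common, in 45.8% of promoters. The stricter kappa-B consensus, whose matches are all matches of the frame too, was found in Cxcl10 (from −104 to −94, in overlapping matches) and in Cxcl1 (from −71 to −62), and 5% of promoters hold it. The letters TTCNNNGAA, the core of an interferon-gamma activated site, were in none of the 6 and in 7.02% of all promoters. These are matches of letters in a short window and say nothing about binding.

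**Figure D1:**
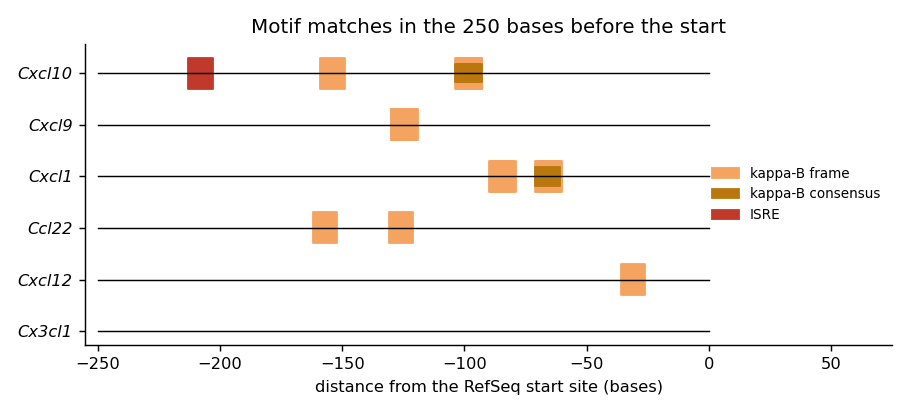
Position of motif matches, on either strand, in the 250 bases before the RefSeq start of 6 chemokine genes (x axis, bases from the start; light boxes, kappa-B frame; dark boxes, kappa-B consensus; red box, interferon-stimulated response element, ISRE). Cxcl10 alone has an ISRE match, and Cx3cl1 has no match.

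The CXCR3 ligands Cxcl9 and Cxcl10, which interferons induce and which draw activated T cells and natural killer cells, were higher in every fusion protein library than in any combination or vehicle library. Cxcl10 had scaled values of 204 at the lowest, 325 at the median and 456 at the highest in the fusion protein group, against 97, 47, 25, 40 and 51 in combination libraries and 36, 80, 118, 154 and 23 in vehicle libraries. The groups did not overlap, and the lowest fusion protein library stood above the highest vehicle library. Means were 320.5 ± 85.7 after the fusion protein (SD, n = 6), 52.0 ± 27.0 after the combination and 82.2 ± 55.0 after vehicle (SD, n = 5 each), 3.90 times as high after the fusion protein as after vehicle. On the deposited scale Cxcl10 differed by 1.29 ± 0.21 between fusion protein and vehicle, by −0.24 ± 0.22 between combination and vehicle and by 1.53 ± 0.21 between fusion protein and combination. A gene on the opposite strand, Art3, overlaps Cxcl10, and whether counting used strand is not stated, so reads of the overlap cannot be told apart. Art3 averaged 1668 ± 183 after the fusion protein, 1828 ± 158 after the combination and 1536 ± 139.7 after vehicle.

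Cxcl9 had values of 184 at the lowest, 287 at the median and 453 at the highest in the fusion protein group, against 149, 25, 15, 14 and 15 in combination libraries and 23, 25, 54, 21 and 11 in vehicle libraries. Combination replicate 1, at 149, came closest to the fusion protein libraries without reaching them, and the other 4 combination libraries lay within the vehicle range. Mean values were 308 ± 112 after the fusion protein (SD, n = 6), 43.6 ± 59.1 after the combination and 26.8 ± 16.1 after vehicle (SD, n = 5 each), 11.5 times as high after the fusion protein as after vehicle. The differences of Cxcl9 were 1.81 ± 0.24 between fusion protein and vehicle, 0.11 ± 0.25 between combination and vehicle and 1.70 ± 0.24 between fusion protein and combination. Cxcl11, the other CXCR3 ligand and the next gene on the chromosome, overlapped between all groups and lay below the filter for testing, with scaled values of 10 to 31 after the fusion protein, 13 to 24 after the combination and 10 to 34 after vehicle.

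Ccl5, which draws T cells, monocytes and eosinophils through receptors such as CCR1 and CCR3, had the largest difference of the 10 between fusion protein and vehicle. Its values were 209 at the lowest, 289.5 at the median and 590 at the highest in the fusion protein group, against 37, 25, 6, 8 and 16 in combination libraries and 23, 22, 19, 10 and 18 in vehicle libraries. Every fusion protein library was more than 5 times as high as the highest library of the other groups. The means were 328 ± 136 after the fusion protein (SD, n = 6), 18.4 ± 12.8 after the combination and 18.4 ± 5.13 after vehicle (SD, n = 5 each), 17.8 times as high after the fusion protein as after vehicle or combination. The difference was 2.00 ± 0.16 between fusion protein and vehicle, −0.03 ± 0.16 between combination and vehicle and 2.03 ± 0.16 between fusion protein and combination. On a log2 scale of the scaled value plus 1, which compresses less, the difference between fusion protein and vehicle was 4.05 ± 0.37 for Ccl5, 3.57 ± 0.53 for Cxcl9 and 2.22 ± 0.43 for Cxcl10. Without fusion protein replicate 1, the difference on the deposited scale was 1.85 ± 0.11 for Ccl5, 1.82 ± 0.27 for Cxcl9 and 1.28 ± 0.23 for Cxcl10.

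**Figure D2:**
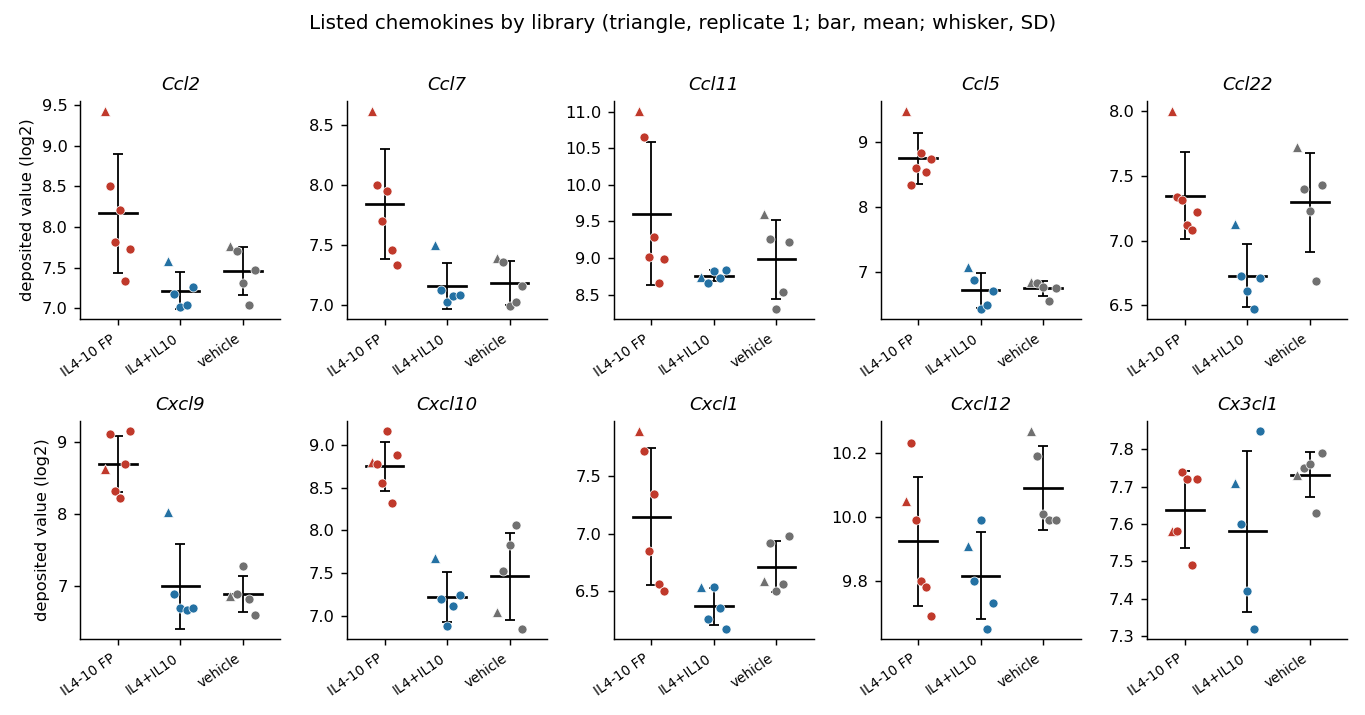
Deposited log2 value (y axis, a separate range in each panel) of the 10 chemokines in each IL4-10 FP, IL4+IL10 and vehicle library; points are libraries, triangles mark replicate 1 of each group, bars are means and whiskers SD. For Ccl5, Cxcl9 and Cxcl10 all 6 fusion protein libraries lie above all others, whereas the groups of the other 7 overlap.

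Ccl2 and Ccl7, the monocyte chemoattractants that act through CCR2, had higher means after the fusion protein than in the other groups, with a wide spread. Ccl2 ranged from 60 over a median of 149 to 567 in the fusion protein group, against 85, 45, 34, 35 and 52 in combination libraries and 110, 101, 57, 35 and 73 in vehicle libraries. Some fusion protein libraries stood inside the vehicle range while the highest, replicate 1, reached 567. Ccl2 averaged 212 ± 185 after the fusion protein (SD, n = 6), 50.2 ± 20.8 after the combination and 75.2 ± 30.9 after vehicle (SD, n = 5 each). On the deposited scale Ccl2 differed by 0.71 ± 0.29 between fusion protein and vehicle, by −0.25 ± 0.30 between combination and vehicle and by 0.96 ± 0.29 between fusion protein and combination. Without fusion protein replicate 1, the first of these was 0.46 ± 0.19, and the mean was 1.88 times that of vehicle libraries in place of 2.82 times. The difference from vehicle did not pass the threshold of adjusted p 0.05, but without fusion protein replicate 5 it was 0.88 and did. The difference from the combination passed, and missed the threshold without combination replicate 2, 3 or 4. Such calls of the listed genes, here and below, only describe the fit, since the list was selected on these same values. Gm17268, which overlaps Ccl2 on the opposite strand, was at the undetected value of 1 in all libraries.

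Ccl7 ranged from 59 over a median of 118 to 276 in the fusion protein group, against 76, 41, 34, 37 and 38 in combination libraries and 65, 62, 32, 34 and 44 in vehicle libraries. Fusion protein replicate 6, at 59, lay below the highest vehicle library, and this library and replicate 5, at 72, lay below the highest combination library. Ccl7 averaged 131 ± 78.6 after the fusion protein (SD, n = 6), 45.2 ± 17.4 after the combination and 47.4 ± 15.4 after vehicle (SD, n = 5 each), with differences of 0.66 ± 0.18 between fusion protein and vehicle, −0.03 ± 0.18 between combination and vehicle and 0.69 ± 0.18 between fusion protein and combination. The excess over vehicle was 0.50 ± 0.13 without fusion protein replicate 1 and 0.31 once trends of each library with GC content and gene length were removed, where Ccl7 no longer passed the threshold.

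Ccl11, or eotaxin, which draws eosinophils through CCR3, varied mostly through a pair of libraries. It had 287 at the lowest, 451 at the median and 1935 at the highest in the fusion protein group, against 311, 286, 334, 308 and 341 in combination libraries and 652, 493, 200, 255 and 474 in vehicle libraries. Fusion protein replicates 1 and 2, at 1935 and 1482, were above all others, and the other 4 lay inside the vehicle range. Ccl11 averaged 832 ± 697 after the fusion protein (SD, n = 6), 316 ± 22.0 after the combination and 415 ± 185 after vehicle (SD, n = 5 each). The difference between fusion protein and vehicle was 0.62 ± 0.40, and 0.34 ± 0.34 without fusion protein replicate 1. Between combination and vehicle it was −0.22 ± 0.42, and between fusion protein and combination 0.84 ± 0.40. Combination libraries were close to each other, with an SD of 22.0 against 697 after the fusion protein and 185 after vehicle.

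Ccl22, a product of macrophages and dendritic cells that draws T cells through CCR4 and is known to be induced by IL4, was lowest after the combination. It had 38 at the lowest, 53 at the median and 145 at the highest in the fusion protein group, against 42, 17, 12, 7 and 16 in combination libraries and 103, 66, 50, 15 and 69 in vehicle libraries. The combination libraries overlapped both other groups, through combination replicate 1 at 42 and vehicle replicate 4 at 15. Means were 65.0 ± 40.1 after the fusion protein (SD, n = 6), 18.8 ± 13.6 after the combination and 60.6 ± 32.0 after vehicle (SD, n = 5 each). Ccl22 differed by 0.05 ± 0.18 between fusion protein and vehicle, by −0.56 ± 0.19 between combination and vehicle and by 0.62 ± 0.18 between fusion protein and combination. The difference between combination and vehicle was −0.46 without vehicle replicate 1 and then missed the threshold, as it did without vehicle replicate 2 or 5 or combination replicate 3 or 4. The difference between fusion protein and combination was 0.55 without combination replicate 4, where it missed the threshold too.

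Cxcl1, which draws neutrophils through CXCR2, was near the floor in most libraries and did not pass the filter for testing. It had 8 at the lowest, 42 at the median and 128 at the highest in the fusion protein group, against 9, 2, 9, 4 and 1 in combination libraries and 11, 27, 8, 10 and 31 in vehicle libraries. Fusion protein replicates 1, 2 and 4, at 128, 103 and 61, were above all vehicle libraries, and replicates 3, 5 and 6, at 23, 10 and 8, lay within their range. Average values were 55.5 ± 50.8 after the fusion protein (SD, n = 6), 5.00 ± 3.81 after the combination and 17.4 ± 10.7 after vehicle (SD, n = 5 each).

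The homeostatic chemokines Cxcl12 and Cx3cl1 had their highest means after vehicle and small differences. Cxcl12, which acts through CXCR4 and is also bound by the scavenging receptor ACKR3, had 705 at the lowest, 832 at the median and 1080 at the highest in the fusion protein group. It had 840, 766, 895, 683 and 729 in combination libraries, against 1112, 1041, 911, 894 and 891 in vehicle libraries. Its groups overlapped, with the combination libraries all at or below 895 and the vehicle libraries all at or above 891. Cxcl12 averaged 856 ± 140.3 after the fusion protein (SD, n = 6), 783 ± 85.1 after the combination and 969.8 ± 101 after vehicle (SD, n = 5 each), with differences of −0.17 ± 0.09 between fusion protein and vehicle, −0.27 ± 0.10 between combination and vehicle and 0.11 ± 0.09 between fusion protein and combination. With the late label numbers as a covariate, the difference between combination and vehicle was −0.09 ± 0.11. It was also −0.09 with the trends removed, and −0.23 without vehicle replicate 1, and it missed the threshold in each of these, as it did without vehicle replicate 2 or combination replicate 2, 4 or 5.

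Cx3cl1, or fractalkine, a membrane-bound neuronal and endothelial chemokine for cells that carry CX3CR1, differed little between groups. It had 75 at the lowest, 94 at the median and 106 at the highest in the fusion protein group, against 102, 87, 68, 58 and 121 in combination libraries and 104, 107, 108, 91 and 112 in vehicle libraries. All 3 groups overlapped, and its differences were −0.09 ± 0.08 between fusion protein and vehicle, −0.15 ± 0.09 between combination and vehicle and 0.06 ± 0.08 between fusion protein and combination.

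**Figure D3:**
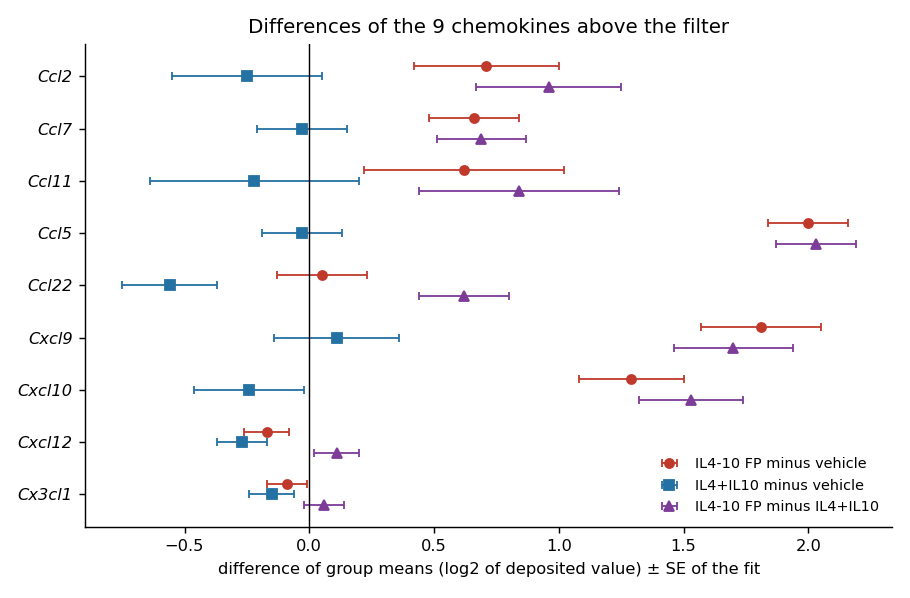
Differences of mean deposited log2 value ± SE of the limma fit (x axis) for the 9 chemokines above the filter, for IL4-10 FP minus vehicle (circles), IL4+IL10 minus vehicle (squares) and IL4-10 FP minus IL4+IL10 (triangles). Ccl5, Cxcl9 and Cxcl10 lie at 1.29 or above in both comparisons that hold the fusion protein and within 0.24 of 0 between combination and vehicle.

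Counted by the threshold of adjusted p 0.05 (limma, Benjamini-Hochberg over 13385 genes), 4 of the 9 chemokines above the filter were higher after the fusion protein than after vehicle (Ccl5, Ccl7, Cxcl9 and Cxcl10), where 12% of tested genes were higher. No listed gene was lower, against 13.7% of tested genes. Groups did not overlap for 3 of them, against 7.76% of tested genes with all fusion protein libraries above all vehicle libraries, and none of the 9 had them all below, against 6.57%. Between combination and vehicle, 2 of the 9 were lower (Ccl22 and Cxcl12), where 12.3% of tested genes were lower, and none was higher, where 24.2% were. The combination and vehicle groups overlapped for all 9, while 15.1% of tested genes had the combination libraries all above and 7.91% all below. Between fusion protein and combination, 6 of the 9 were higher (Ccl2, Ccl5, Ccl7, Ccl22, Cxcl9 and Cxcl10), where 7.35% of tested genes were higher and 29.5% passed either way. For 3 the fusion protein libraries were all above, against 3.09% of tested genes, and for none were they all below, against 6.44%. Their median difference was 0.66 between fusion protein and vehicle, −0.22 between combination and vehicle and 0.84 between fusion protein and combination, beside −0.018, 0.059 and −0.09 over all tested genes. Since the genes were listed with these results known, the counts support nothing. Ccl5 and Cxcl9 also passed the filter only through the fusion protein group, their vehicle means of 6.75 and 6.88 being below it. The comparisons of both treatments share the vehicle libraries, and those of the fusion protein share its libraries.

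Per kilobase of exon, the order of the 10 genes changed between groups. In the fusion protein group Ccl11 led with a mean scaled value of 769 per kilobase, followed by Ccl5 at 341, Ccl2 at 187, Ccl7 at 164, Cxcl10 at 142, Cxcl12 at 105 and Cxcl9 at 102, with Cxcl1 at 29.6, Ccl22 at 28.0 and Cx3cl1 at 23.6 well below. In vehicle libraries Ccl11 at 383 and Cxcl12 at 119 led, Ccl2 at 66.1, Ccl7 at 59.2 and Cxcl10 at 36.5 came next, and Cx3cl1 at 26.6, Ccl22 at 26.1, Ccl5 at 19.2, Cxcl1 at 9.28 and Cxcl9 at 8.89 closed the order. Combination libraries had Ccl11 at 292, Cxcl12 at 95.7, Ccl7 at 56.4, Ccl2 at 44.1, Cxcl10 at 23.1, Cx3cl1 at 22.2, Ccl5 at 19.2, Cxcl9 at 14.5, Ccl22 at 8.09 and Cxcl1 at 2.67 per kilobase. Ccl5 thus stood in the second place after the fusion protein, the seventh after the combination and the eighth after vehicle. SDs of the 6 fusion protein libraries were wide, 644 per kilobase for Ccl11, 142 for Ccl5, 163 for Ccl2, 98.1 for Ccl7 and 38.0 for Cxcl10, so neighbours from Ccl5 down to Cxcl9 did not differ beyond their spread.

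The labels number the samples, and all 5 combination libraries have late numbers (13 to 17), as have fusion protein replicates 5 and 6 (12 and 19) and vehicle replicate 5 (18), so that late numbers and the combination can hardly be told apart. Within the fusion protein group the 4 libraries with numbers 5 to 8 were all above those with numbers 12 and 19 for Ccl2 (mean log2 values of 8.49 early and 7.54 late), Ccl7 (8.07 early and 7.40 late), Ccl11 (9.99 early and 8.82 late), Cxcl1 (7.45 early and 6.53 late) and Cxcl12 (10.02 early and 9.74 late). For Cxcl9 the means were 8.57 in the 4 libraries with early numbers and 8.93 in the other two, and for Ccl5, Ccl22, Cxcl10 and Cx3cl1 the early and late libraries overlapped as well. What the numbers stand for is not given. The settings that follow show how differences changed with the numbers, and why they changed was not tested. Among libraries numbered 1 to 8 (4 fusion protein and 4 vehicle libraries), the difference between fusion protein and vehicle was 1.03 ± 0.34 for Ccl2, 0.87 ± 0.19 for Ccl7, 1.07 ± 0.54 for Ccl11, 2.05 ± 0.21 for Ccl5, 1.61 ± 0.19 for Cxcl9 and 1.21 ± 0.21 for Cxcl10. With late numbers as a covariate, the difference between fusion protein and combination was 0.56 ± 0.33 for Ccl2, 0.40 ± 0.19 for Ccl7 and 0.54 ± 0.23 for Ccl22, and these 3 then missed the threshold.

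Receptors of these chemokines were tested with all other genes, and 3 of those for inflammatory ligands rose after the fusion protein. The receptor list and those of markers, other ligands, proteases and regulators below were also chosen with earlier results of these data known. Their counts are therefore a description and support nothing, and their p-values do not allow for that choice. Of 22 listed receptors 7 passed the filter, and against vehicle 3 rose and 1 fell, beside 25.8% of tested genes that changed either way. Ccr2, the receptor of Ccl2 and Ccl7, had 539 at the lowest and 2152 at the highest after the fusion protein, against 292 to 438 after the combination and 166 to 329 after vehicle, and rose by 1.64 ± 0.22 over vehicle (limma, adjusted p = 0.000184, higher in 6 of 6 fusion protein libraries). Ccr1, which binds Ccl5 and Ccl7, rose by 1.62 ± 0.32 (adjusted p = 0.00219). Cxcr2, the receptor of Cxcl1 on neutrophils, rose by 1.12 ± 0.34 (adjusted p = 0.0258). For each of these, all 6 fusion protein libraries were above all 5 vehicle libraries. The call of Cxcr2 ended in 5 of 25 alternative settings, among them the omission of vehicle replicate 4 or 5.

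Fusion protein replicate 1 stood far above its group for 2 of these receptors, at 1513 for Ccr1, where the other 5 libraries had 271 to 420, and at 1152 for Cxcr2, where they had 154 to 261. The lowest of those 5 still exceeded the highest vehicle library for both genes, 128 for Ccr1 and 111 for Cxcr2. Against the combination the same 3 receptors rose after the fusion protein, Ccr2 by 1.20 ± 0.22 (limma, adjusted p = 0.00446), Ccr1 by 1.41 ± 0.32 (adjusted p = 0.00884) and Cxcr2 by 1.25 ± 0.34 (adjusted p = 0.0175), beside 7.35% of tested genes that rose. With late label numbers as a covariate, Ccr1 and Cxcr2 missed the threshold in that comparison.

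Ackr1, a decoy receptor of venular endothelium that binds many inflammatory chemokines, fell by 0.34 ± 0.08 after the fusion protein (limma, adjusted p = 0.00485) and by 0.28 ± 0.08 after the combination (adjusted p = 0.0134), both against vehicle. It averaged 1207 ± 151 after the fusion protein (SD, n = 6), 1257 ± 83.4 after the combination and 1561 ± 161 after vehicle (SD, n = 5 each). The fall after the fusion protein missed the threshold among libraries numbered 1 to 8, and that after the combination did so with late label numbers as a covariate or with GC and length trends removed. Receptors of the homeostatic pair gave differences between fusion protein and vehicle of −0.04 ± 0.11 for Cxcr4 (adjusted p = 0.815, limma), 0.22 ± 0.14 for Ackr3 (adjusted p = 0.242) and 0.05 ± 0.11 for Cx3cr1 (adjusted p = 0.754), none past the threshold. Cxcr3, Ccr4 and Ccr3, the receptors of Cxcl9 and Cxcl10, of Ccl22 and of Ccl11, were below the filter. The mean scaled values were 15.7 after the fusion protein, 8.40 after the combination and 6.60 after vehicle for Cxcr3. Ccr4 averaged 6.33 after the fusion protein, 2.00 after the combination and 1.80 after vehicle, and Ccr3 averaged 13.8 after the fusion protein, 14.0 after the combination and 18.2 after vehicle.

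**Figure D4:**
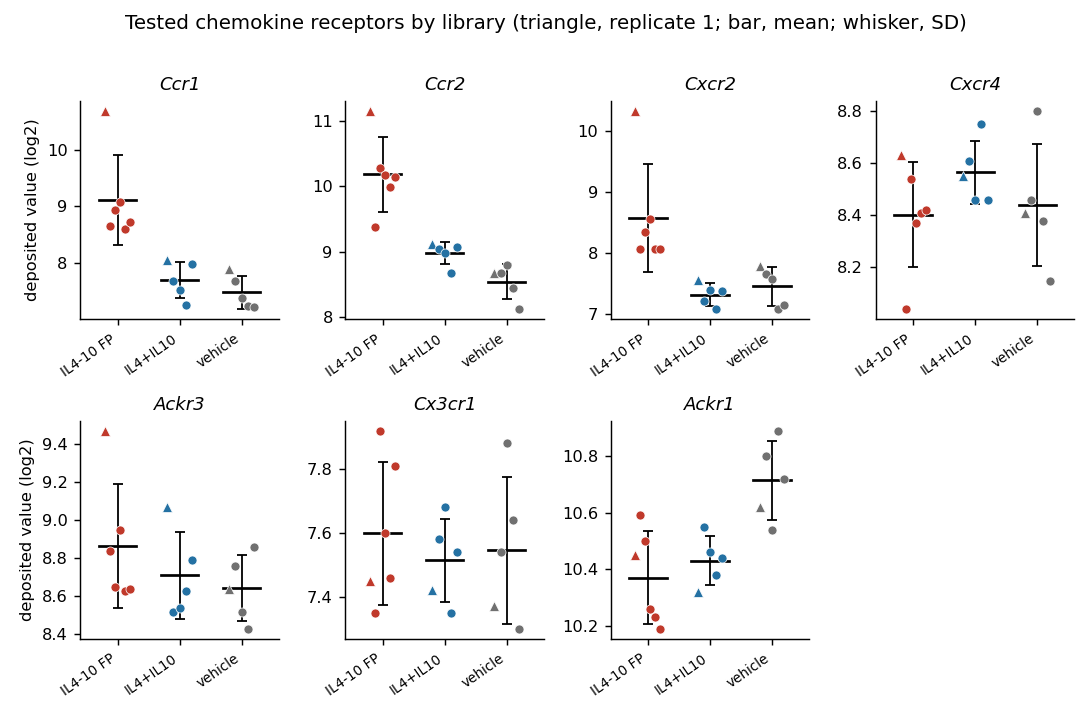
Deposited log2 value (y axis, a separate range in each panel) of 7 chemokine receptors above the filter in each IL4-10 FP, IL4+IL10 and vehicle library; points are libraries, triangles replicate 1, bars means and whiskers SD. All 6 fusion protein libraries lie above all vehicle libraries for Ccr1, Ccr2 and Cxcr2, whereas Cxcr4, Ackr3 and Cx3cr1 overlap between groups.

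Markers of cells that these ligands draw gave the following levels beside the chemokines. For inflammatory monocytes, 4 of 5 listed markers rose after the fusion protein against vehicle (Ly6c2, Plac8, F13a1 and Ccr2, the last also counted among receptors), beside 12% of tested genes that rose. Their summed level was 1347 to 5620 after the fusion protein, with 2618 as the highest without replicate 1, against 997 to 1259 after the combination and 623 to 1146 after vehicle. For monocytes and macrophages, 6 of 9 rose, Itgam by 1.20 ± 0.29 (limma, adjusted p = 0.00749) and Cd14 by 1.02 ± 0.22 (adjusted p = 0.00322) among them, beside the same 12%, with sums of 3372 to 8276 after the fusion protein (5232 as the highest without replicate 1), 3086 to 4316 after the combination and 2237 to 3875 after vehicle. Cd163 (−0.11 ± 0.11), Mrc1 (0.13 ± 0.15) and Adgre1 (0.23 ± 0.14) did not pass. Cd163 differed by −0.44 ± 0.11 between fusion protein and combination (limma, adjusted p = 0.00904). After the combination Cd163 rose by 0.33 ± 0.11 (adjusted p = 0.0268) and Mrc1 by 0.47 ± 0.15 (adjusted p = 0.023) over vehicle. Of 9 markers of neutrophils and their precursors 7 passed the filter, none rose and 1 fell. Beside this, 12% of tested genes rose and 13.7% fell, so the count is near that of all genes. Mpo fell by 0.48 ± 0.16 after the fusion protein (limma, adjusted p = 0.0321) and by 0.52 ± 0.17 after the combination (adjusted p = 0.02), both against vehicle. Sums of these 9 markers were 2225 to 7120 after the fusion protein (4659 as the highest without replicate 1), 3073 to 4976 after the combination and 1814 to 4909 after vehicle. Ly6g, the defining marker of neutrophils, had 4 to 26 after the fusion protein, 1 to 19 after the combination and 6 to 11 after vehicle. Eosinophil markers summed to 105 to 303 after the fusion protein, 94 to 263 after the combination and 110 to 702 after vehicle, and neither of the tested markers, Epx and Prg2, passed the threshold.

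T cell and natural killer cell markers, set beside the CXCR3 ligands, were low, with Cd3e at 4 to 16 after the fusion protein, 2 to 11 after the combination and 3 to 9 after vehicle. The 8 T cell markers summed to 120 to 234 after the fusion protein, 97 to 149 after the combination and 83 to 120 after vehicle, and Lck, the only 1 above the filter, rose by 0.42 ± 0.09 over vehicle (limma, adjusted p = 0.00188). The 6 natural killer cell markers summed to 125 to 376 after the fusion protein, 62 to 120 after the combination and 46 to 78 after vehicle, and Gzma, a granzyme and the only 1 above the filter, rose by 1.08 ± 0.11 after the fusion protein (adjusted p = 3.63e-06) and by 0.39 ± 0.11 after the combination (adjusted p = 0.0108), both against vehicle. Gzma had 48 to 145 after the fusion protein, 22 to 35 after the combination and 5 to 14 after vehicle. It passed the filter, at a mean log2 value of 7.07, only through the fusion protein group, so its p-values are a description. Much of the sum came from Gzma and a second granzyme, Gzmb, at 47 to 105 after the fusion protein and 3 to 7 after vehicle. Nkg7 had 12 to 55 after the fusion protein and 6 to 10 after vehicle. Ncr1 (6 to 31 against 5 to 8), Klrb1c (5 to 42 against 12 to 27) and Prf1 (7 to 36 against 4 to 12) overlapped between these groups. The part of these cells in the chemokine values was not tested.

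Among 28 other chemokine ligands 8 passed the filter, and 2 of these rose after the fusion protein, beside 12% of tested genes. Both are neighbours of Ccl5: Ccl9 rose by 1.49 ± 0.25 over vehicle (limma, adjusted p = 0.000816) and Ccl6 by 1.19 ± 0.25 (adjusted p = 0.00293), each higher in 6 of 6 fusion protein libraries. Ccl9 averaged 730.3 ± 396 after the fusion protein (SD, n = 6), 221 ± 104 after the combination and 176 ± 58.4 after vehicle (SD, n = 5 each), and Ccl6 averaged 830.5 ± 455 after the fusion protein, 311 ± 108 after the combination and 280.0 ± 85.6 after vehicle. Fusion protein replicate 1 had 1530 for Ccl9 and 1747 for Ccl6, and without it the group averaged 570.4 ± 65.4 and 647 ± 81.6. Both, which are myeloid chemokines of the mouse that bind CCR1, also rose against the combination, by 1.31 ± 0.25 (adjusted p = 0.00515) and 1.09 ± 0.25 (adjusted p = 0.00864). None of the 8 passed between combination and vehicle, beside 36.5% of tested genes that did. The median difference of the 8 was 0.16 between fusion protein and vehicle, beside −0.018 over all tested genes.

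Below the filter, Ccl4, Ccl3, Cxcl2, Cxcl13, Ccl8 and Xcl1 were also higher in all fusion protein libraries than in any vehicle library, without a test. The macrophage chemokine Ccl4 averaged 33.5 ± 15.7 after the fusion protein (SD, n = 6), 6.00 ± 4.80 after the combination and 3.60 ± 1.14 after vehicle (SD, n = 5 each), and the neutrophil chemokine Cxcl2, the neighbour of Cxcl1, averaged 37.7 ± 46.6 after the fusion protein, 2.40 ± 2.07 after the combination and 3.40 ± 1.82 after vehicle. Cxcl2 reached 131 in fusion protein replicate 1, and without it the fusion protein group averaged 19.0 ± 10.2, which is 5.59 times the vehicle mean in place of 11.1 times. Ccl28, an epithelial chemokine, was the ligand whose combination libraries, at 28 to 77, all lay above the vehicle libraries, at 9 to 14. It had 5 to 59 after the fusion protein. That is 1 of the 28, beside 15.1% of tested genes with the combination libraries all above. Ccl26 and Cxcl15 were at the undetected value in all 16 libraries, and Ccl20 and Cxcl17 never exceeded 3. Ccl19, Ccl21a and Ccl27a have near-identical copies, so their values are uncertain.

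**Figure D5:**
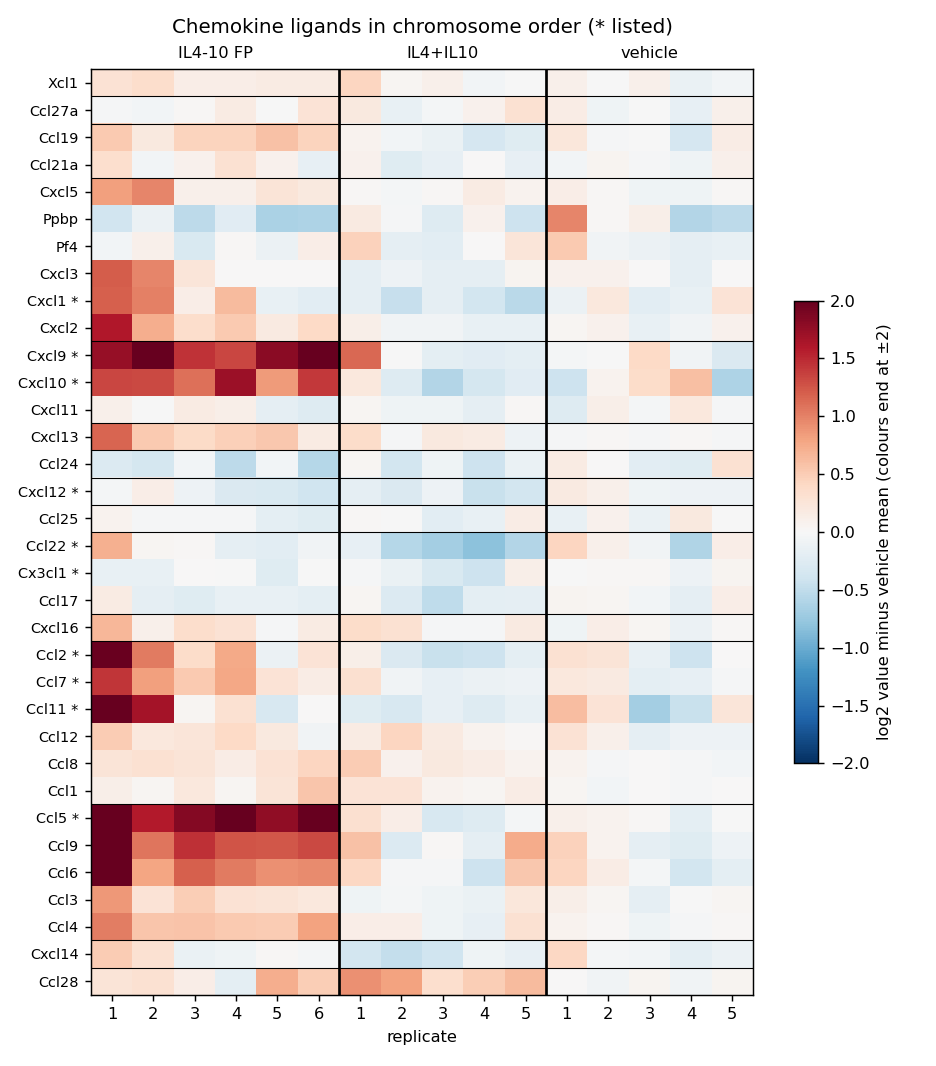
Deposited log2 value minus the vehicle mean (colour, ending at ±2) of 34 chemokine ligands (rows, in chromosome order, lines between clusters, * for the 10 listed) in each library (columns, by group). Ccl5, Ccl9, Ccl6, Cxcl9 and Cxcl10 are high in all 6 fusion protein libraries, with Ccl5, Ccl9 and Ccl6 highest in replicate 1. Ccl2, Ccl7, Ccl11, Cxcl1, Cxcl2 and Cxcl3 are also highest in fusion protein replicate 1, or in replicates 1 and 2.

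Of 8 listed proteases that cut chemokines 7 passed the filter, and none of these passed the test between fusion protein and vehicle, beside 25.8% of tested genes that did. Adam10, which sheds Cx3cl1 from the membrane, averaged 1922 ± 150.3 after the fusion protein (SD, n = 6), 2504 ± 304 after the combination and 2087 ± 299 after vehicle (SD, n = 5 each). It fell by 0.36 ± 0.09 after the fusion protein against the combination (limma, adjusted p = 0.0116) and rose by 0.25 ± 0.10 after the combination against vehicle (adjusted p = 0.0454), a call that 15 of 24 alternatives ended. Mmp14, a membrane metalloprotease, rose by 0.35 ± 0.09 after the fusion protein against the combination (adjusted p = 0.0101) and fell by 0.33 ± 0.09 after the combination against vehicle (adjusted p = 0.00782). Once trends with GC content and length were taken out, the difference of Mmp14 was 0.22 between fusion protein and combination and −0.08 between combination and vehicle, both short of the threshold. Dpp4, which trims and inactivates Cxcl10 and Cxcl12, differed by 0.02 ± 0.18 between fusion protein and vehicle (adjusted p = 0.956).

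Of 21 listed regulators of chemokine genes 17 passed the filter, and 5 rose after the fusion protein against vehicle while none fell, beside 12% of tested genes that rose and 13.7% that fell. The interferon response factor Irf7 averaged 580.2 ± 115 after the fusion protein (SD, n = 6), 82.6 ± 16.1 after the combination and 115 ± 35.3 after vehicle (SD, n = 5 each), a rise of 1.65 ± 0.12 over vehicle (limma, adjusted p = 2.4e-07, higher in 6 of 6 libraries). Irf9, a subunit of the complex that binds interferon-stimulated response elements, rose by 0.47 ± 0.11 (adjusted p = 0.00535). The NF-kappa-B inhibitor Nfkbia rose by 0.47 ± 0.12 (adjusted p = 0.00744), its fellow feedback inhibitor Tnfaip3 by 0.41 ± 0.14 (adjusted p = 0.0375, a call that 9 of 25 alternatives ended) and the cytokine Il1b by 1.79 ± 0.36 (adjusted p = 0.00255). Il1b averaged 464 ± 502 after the fusion protein, 263 ± 103 without replicate 1, and 39.6 ± 15.5 after vehicle. Ifng had 3 to 6 after the fusion protein and the undetected value of 1 in every combination and vehicle library, and Ifnb1 was at 1 in all libraries.

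Between combination and vehicle 3 of the 17 regulators fell and none rose, beside 12.3% of tested genes that fell and 24.2% that rose. Those that fell were the NF-kappa-B subunits Rela, by 0.53 ± 0.08 (limma, adjusted p = 7.44e-05), and Nfkb2, by 0.45 ± 0.14 (adjusted p = 0.0193), and Zfp36, which destabilizes cytokine and chemokine mRNAs, by 0.68 ± 0.24 (adjusted p = 0.0381). Without those trends Nfkb2 differed by −0.09 and Zfp36 by −0.45, both short of the threshold, and 10 of 24 alternatives ended the call of Zfp36. Rela averaged 427 ± 44.3 after the fusion protein (SD, n = 6), 298 ± 40.5 after the combination and 479 ± 47.1 after vehicle (SD, n = 5 each). Between fusion protein and combination 12 of the 17 rose and none fell, led by Irf7 at 1.89 ± 0.12 (adjusted p = 2.37e-08), beside 7.35% of all tested genes that rose.

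By Pearson correlation of deposited log2 values over the 16 libraries, the genes most like Ccl5 were Oas1a (0.99), Slfn4 (0.98), Oas2 (0.98), Ifi204 (0.98) and Ms4a4c (0.98). Within groups, after each group's mean was subtracted, these correlations were 0.85, 0.84, 0.90, 0.81 and 0.84. The nearest gene was Usp18 for Cxcl10 (0.98 over libraries and 0.89 within groups) and Isg15 for Cxcl9 (0.92 and 0.38). For Ccl2 it was Tmem173 (0.98 and 0.97), for Ccl7 it was Ccl2 itself (0.96 and 0.95) and for Ccl11 it was Ptx3 (0.96 and 0.97). The likeness of Cxcl9 to its nearest gene thus lay mostly between groups, while Ccl2, Ccl7 and Ccl11 followed theirs within groups as well. Ccl22 was nearest to Ptbp1 (0.95 and 0.92), Cxcl12 to Micall2 (0.88 and 0.87) and Cx3cl1 to Mrgprf (0.83 and 0.90). All these correlations share the same libraries and their scaling, and each gene was picked for a high value among 13385 genes.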

How the data were processed

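PolyA-selected RNA of lumbar DRG was sequenced in 16 libraries. Per the submitters' processing notes, reads were handled with FastQC, STAR, HTSeq, DESeq2 and build GRCm38; versions and strandedness are not given in the sources used here. The authors deposited variance-stabilised log2 values of 36722 genes, with a GC percent per the file headers. The deposited p-value columns name no comparison and were not used. The inverse of the transform, with the lowest value (5.9921) as its only parameter, maps 100.0% of values to whole numbers within 0.01, called scaled values. The most common value, 6.1728, decodes to 1. An unstated scaling step came first, so depth and counting error are unknown.

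Genes with a mean log2 value of at least 6.9921 (13385 genes; scaled value 31.824) entered a two-sided limma test (version 3.58.1, R 4.3.3) that modelled the 3 groups of all 16 libraries at once, with the trend and robust options of eBayes. Calls were made at an adjusted p of 0.05 (Benjamini-Hochberg, 13385 genes). The fit was tested on simulated data with independent normal values in each library, so that test does not cover correlations between libraries. Annotation, promoters, motifs and plots used Python 3.11.15; 36345 genes matched GENCODE.

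The 10 chemokines and the other lists were chosen with earlier results of these data known. Named are the 10 and their known receptors, per comparison and list up to 8 genes past the threshold, lowest p first, the undetected ones, and the tested genes most correlated with each chemokine (5 for Ccl5, 1 for each other). Some listed genes are not reported here, and the counts leave them out. Other genes named, such as Cxcl2, Ccl4, Ccl28, Art3 and single markers, were chosen after their values were seen. Alternatives were other filters, quantile and median scaling, array weights, plain limma, only the groups compared, a replicate block, late label numbers, label numbers 1 to 8 alone, removed trends with GC content and length, log2 of the scaled value plus 1, adjusted p of 0.1 or 0.01, and leaving out libraries in turn.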

Additional observations from a re-analysis of the deposited data

Results flagged for a closer look

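Among the 10 chemokines and 10 of their known receptors, 60 groups of libraries were screened for a library far from the others of its group, and 6 were found. Chance marks about 1 group in 20. Ccl22 was 145 in fusion protein replicate 1, against 38 to 60 in the other 5 libraries of that group. In the same library Ccr1 was 1513, against 271 to 420, and Cxcr2 was 1152, against 154 to 261. Combination replicate 1 had 76 for Ccl7, against 34 to 41 in the other 4 libraries, and 149 for Cxcl9, against 14 to 25. Ccr4 was at the undetected value of 1 in vehicle replicate 4 and at 2 in the other 4 vehicle libraries, a step of a single unit at the floor. Replicate 1 held the highest summed inflammatory monocyte markers in each of the 3 groups, at 5620 after the fusion protein, 1259 after the combination and 1146 after vehicle. For the 9 markers of monocytes and macrophages, combination replicate 5 was the highest of its group, at 4316. What sets the flagged libraries apart was not tested.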

How the results depend on the processing

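Settings were run for the listed chemokines, their receptors and the named ligands, proteases and regulators, and no difference of these past the threshold changed sign. The count of genes past the threshold between fusion protein and vehicle (3450) was 1768 at an adjusted p of 0.01, 6106 with array weights, 2163 with label numbers 1 to 8 and 2543 to 3659 with 1 library left out. Between combination and vehicle (4891) it was 2991 at 0.01 and 4033 to 5369 with 1 library left out. Between fusion protein and combination (3950) it was 908 at 0.01, 6275 with array weights, 2363 with quantile normalization, 2579 with GC and length trends removed, 2507 with these removed and a replicate block, and 1999 (without combination replicate 2) to 5247 with 1 library left out; 24.9% of its calls were higher, and 41.3% with quantile normalization.

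Of the listed chemokines, 4 passed between fusion protein and vehicle, 4 to 5 with 1 library left out and 0 with the stricter filter, which keeps Ccl11 and Cxcl12 only. Between combination and vehicle 2 passed: 1 with the stricter filter, no filter or trends removed, 0 at 0.01 or with late label numbers, 4 with array weights, and 0 to 2 with 1 library left out (0 without combination replicate 4 or vehicle replicate 1 or 2). Between fusion protein and combination 6 passed: 0 with the stricter filter, 3 at 0.01 or with late label numbers, and 4 to 6 with 1 library left out. The cause of these changes was not tested, save that the stricter filter tests fewer genes.

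Whether replicate numbers pair the samples is not stated in the labels, and correlations between libraries cannot settle it. Over 15 same-number pairs the correlation of deviations had a median of 0.06 (−0.196 to 0.598), beside 0.007 over 70 other pairs (−0.858 to 0.796). Both ends of that wider range involved vehicle replicate 2, with fusion protein replicate 6 at −0.858 and replicate 1 at 0.796. Of the same-number pairs 7 were above 0.1, and 9 of 30 comparisons were best with the same number. With the replicate block 3216, 5195 and 3429 genes passed in the 3 comparisons and 5, 2 and 6 listed chemokines. Depth is unknown, and differences of genes near the floor, such as Cxcl1 and Ccr4, are compressed.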
